A study of Mus musculus with 12 samples.

Results

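The microRNAs (miRNAs) of the Mirg cluster, which runs from miR-379 to miR-410, were followed in mouse liver from before birth to young adulthood. Members were the probes whose miRNA number belongs to the cluster, with any letter or arm suffix, and 34 of the 355 probes in the table met this rule. These probes stand for 28 of the 34 numbers searched, and miR-299, miR-758, miR-679, miR-544, miR-668 and miR-453 were not analysed here. Livers of C57Bl/6 mice were taken at embryonic day 15.5 (e15.5, mixed sex) and, from males, at 2, 3 and 7 weeks after birth, giving 12 samples, 3 for each age. No transgene or treatment is named in the labels. Wherever e15.5 is compared with a later age, sex and age cannot be told apart, and it is unstated whether each fetal sample came from 1 embryo or from a pool. Total RNA was measured with the nanoString nCounter mouse miRNA assay, which counts barcoded probes hybridised to each miRNA without amplification.

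The cluster lies in the imprinted Dlk1-Dio3 domain, where the maternal chromosome alone produces a series of noncoding RNAs (Meg3, the anti-Rtl1 transcript, Rian and Mirg) and the paternal chromosome produces the proteins Dlk1 and Dio3. The miRNA hairpins are cut out of these maternal transcripts, and their products are known to be plentiful in the embryo and placenta and, in the adult, mainly in the brain. In mice, maternal deletion of the cluster is known to impair the switch of liver metabolism at birth and to cause neonatal hypoglycaemia. An miRNA represses messenger RNAs that pair with its seed, bases 2 to 8 from the 5′ end.

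In RefSeq (GRCm38.p6), 33 of the 34 probes matched 29 hairpin genes, all on the plus strand of chromosome 12, between the first base of Mir379 and the last base of Mir410 (chr12:109709060-109743795, 34.7 kb). Of the 29 hairpins, 8 lay inside the annotated Mirg noncoding RNA gene and the others upstream of it. A mature sequence was matched for 26 probes. For 9 of these the probe name gives the arm of the hairpin, and for 17 the arm was assumed from the older miRNA name without a star, so those sequences rest on that assumption. The 26 sequences held 26 distinct seeds, so no 2 matched members shared a seed. Sequences of the members on which the results turn are given 5′ to 3′ with the seed in capitals.
miR-154-5p (chr12:109738438-109738459, plus strand): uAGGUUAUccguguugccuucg
miR-376b-3p (chr12:109723508-109723528, plus strand): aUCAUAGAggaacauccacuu
miR-376a-3p (chr12:109723824-109723844, plus strand): aUCGUAGAggaaaauccacgu
miR-495-3p (chr12:109718795-109718816, plus strand): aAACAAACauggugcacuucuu
miR-543-3p (chr12:109717304-109717325, plus strand): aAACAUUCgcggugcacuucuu
miR-300-3p (chr12:109724363-109724384, plus strand): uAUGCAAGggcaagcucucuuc
miR-381-3p (chr12:109726870-109726891, plus strand): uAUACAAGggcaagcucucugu
miR-377-3p (chr12:109740553-109740574, plus strand): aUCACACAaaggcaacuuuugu
miR-369-3p (chr12:109743466-109743486, plus strand): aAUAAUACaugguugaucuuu
miR-410-3p (chr12:109743764-109743784, plus strand): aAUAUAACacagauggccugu
miR-411-5p (chr12:109710190-109710210, plus strand): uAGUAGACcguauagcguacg

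Counting from the 5′ end, miR-376b-3p and miR-376a-3p were identical at 18 of 21 bases and differed by A4G, C13A and U20G, with 1 of the changes in the seed. The pair miR-495-3p and miR-543-3p shared 18 of 22 bases and differed by A6U, A7U, A9G and U10C, with 2 changes in the seed. The pair miR-381-3p and miR-300-3p shared 19 of 22 bases and differed by A4G, G21U and U22C. Some of these hairpins are near neighbours: 654 bases separate the Mir376c and Mir376b hairpins and 241 bases separate Mir376b from Mir376a. The miR-376 precursors are also known targets of adenosine-to-inosine editing, which these probe values do not report.

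Values are given as linear signal, that is 2 raised to the deposited log2 value. In every liver some probes were listed at the lowest value of the table, 0.001 in linear units, and such values are called "at the floor". Members above the floor numbered 25, 28 and 32 in the e15.5 livers, 24, 23 and 19 at 2 weeks, 13 in each liver at 3 weeks and 10, 12 and 6 at 7 weeks. Over all 355 probes, between 159 and 248 were above the floor in postnatal livers and between 212 and 311 in fetal ones. The total linear signal of all probes lay between 148505 and 172057 at e15.5, and between 486743 and 618776 at 2 weeks. It lay between 478381 and 539127 in 3-week livers, and between 236866 and 267914 in 7-week livers. The scaling of samples before deposit was not given in the sources used here. Each tested comparison was therefore also made after scaling every liver to an equal mean log2 value of 1 common set of 100 probes. These were the 100 brightest by mean deposited log2 value over all 12 livers. Those probes were on average 1.75, 1.39 and 0.27 higher on the log2 scale at 2, 3 and 7 weeks than at e15.5.

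Apart from miR-154, the share of the cluster in the measured miRNA signal was lower at every later age. The other 33 members together made up 7.69%, 9.19% and 9.04% of the total signal in the 3 e15.5 livers, 0.710%, 0.767% and 0.648% at 2 weeks, 0.116%, 0.125% and 0.122% at 3 weeks and 0.0797%, 0.0990% and 0.0481% at 7 weeks. The ages did not overlap in this share. Probes differ in efficiency, so it is a share of signal and not of molecules. Because it is a share within 1 liver, it does not depend on the scaling between livers, although it falls when other miRNAs rise. In bulk liver, fewer cells of a type and less RNA per cell cannot be told apart.

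**Figure D1:**
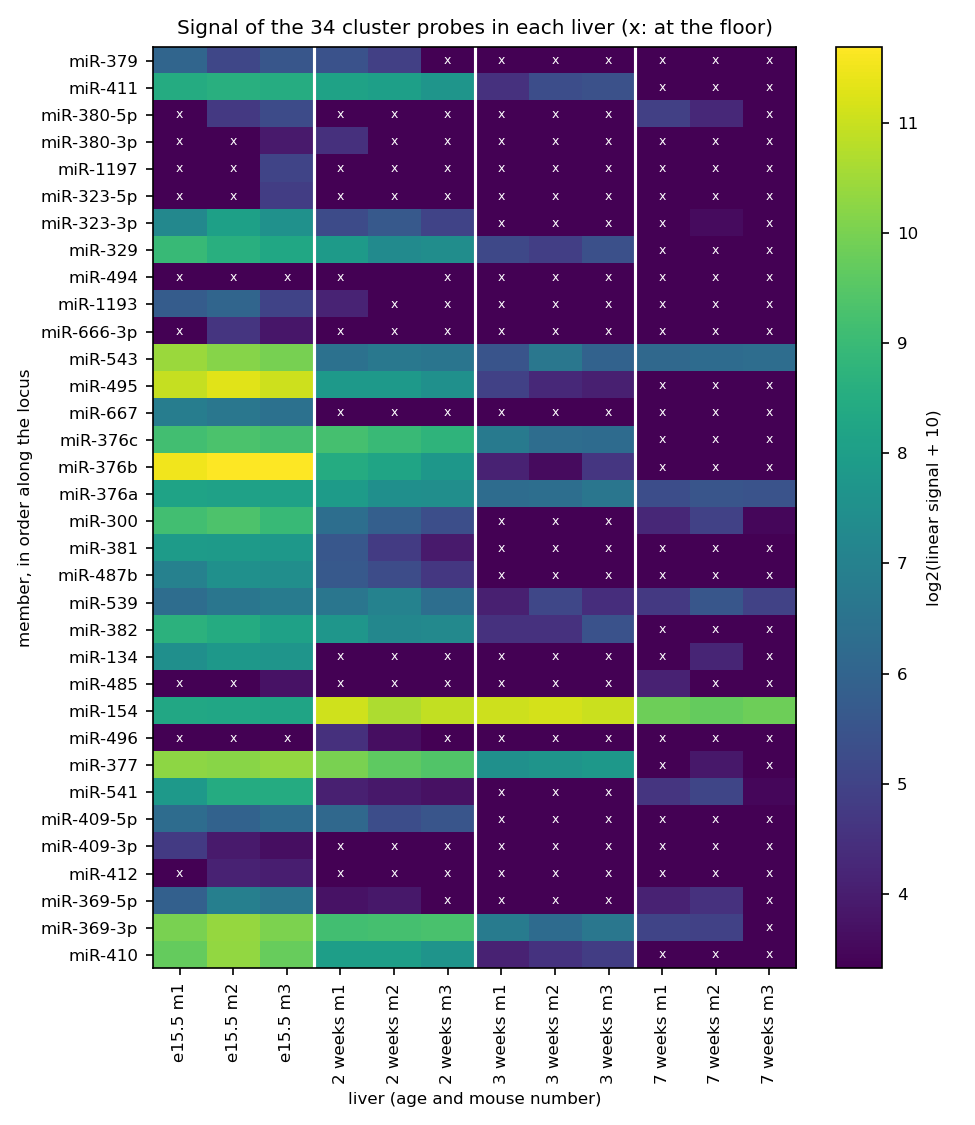
Signal of each of the 34 cluster probes (rows, in order along the locus) in each of the 12 livers (columns, by age and mouse number m1 to m3), as log2(linear signal + 10), with x for values at the floor. In most rows the signal drops from the fetal to the adult livers, and miR-154 is the row that is brighter in the postnatal livers.

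Ages were compared with limma on log2(linear signal + 10), a scale that keeps a step from a few units to the floor from counting as a large change and understates the changes of dim probes. Changes are given on this scale with their standard error (SE), and a call is an adjusted p below 0.05 (Benjamini-Hochberg over all 355 probes). Across the 4 ages 25 of the 34 members were called (F test; 58% of all probes were). At 2 weeks 19 members were lower than at e15.5 and 1, miR-154, was higher, while 27% of all probes were called lower and 29% higher. The median change of the members was -0.97, beside -0.32 for all probes. At 3 weeks 25 members were called lower and 1, again miR-154, higher (36.9% and 26.2% of all probes), with a median of -2.81 beside -0.43. At 7 weeks the counts were 25 and 1 again (26.8% and 19.7% of all probes), with a median of -3.08 beside -0.32. After scaling, 26 members were lower and 1, miR-154, was higher at each of the 3 ages. Over all probes, 45.1% were then lower and 20% higher at 2 weeks, 47.6% and 19.2% at 3 weeks, and 32.4% and 19.4% at 7 weeks. Scaling moved the median of all probes to -0.86, -0.90 and -0.55 at 2, 3 and 7 weeks, and that of the members to -2.28, -3.95 and -3.85.

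The same 19 members were lower at 2, 3 and 7 weeks than at e15.5. Another 6, miR-369-3p, miR-376c, miR-379, miR-409-5p, miR-411 and miR-539, were lower at 3 and 7 weeks and not called at 2 weeks. The remaining 9 were miR-154 and 8 dim probes (miR-1197, miR-323-5p, miR-380-3p, miR-380-5p, miR-485, miR-494, miR-496 and miR-666-3p). Of the 25 members lower at 7 weeks, 15 were at the floor in all 3 livers of that age, while 5 had a value above it in each of the 6 livers compared.

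**Figure D2:**
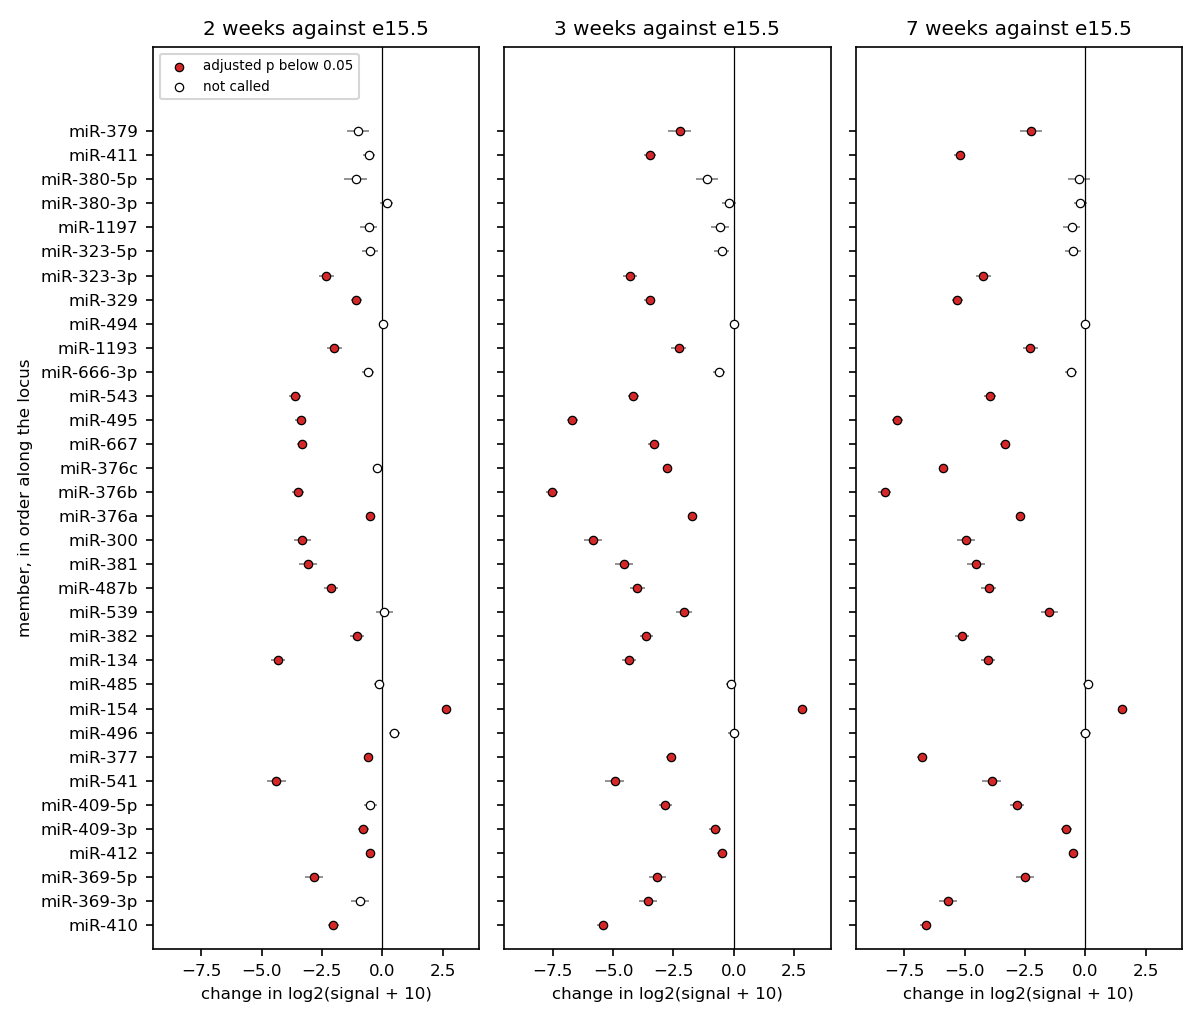
Change in log2(linear signal + 10) of each member at 2, 3 and 7 weeks against e15.5, with SE bars, members in order along the locus and called changes filled. At 2 weeks the members spread between -4.38 (miR-541) and 2.62 (miR-154). Strongly lowered members lie beside each other as well as beside little changed ones. Some little changed probes, such as miR-494 and miR-496, were at the floor in every e15.5 liver and could not fall. Others, such as miR-376c, miR-376a and miR-377, were lower after scaling (-1.95, -2.18 and -2.31).

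The members did not fall in step, and the step from e15.5 to 2 weeks separated them. Leaving out miR-154, 17 members had an e15.5 mean of 100 units or more. Of these, 10 had a 2-week mean under 25% of their e15.5 mean (miR-134, miR-541, miR-543, miR-376b, miR-300, miR-381, miR-495, miR-323-3p, miR-487b and miR-410), 2 (miR-329 and miR-382) lay between 25% and 50%, and 5 stayed above 50%. The cuts depend on the scaling: after scaling 16 of the 17 were under 25%, 1 (miR-376c, 25.3%) lay between 25% and 50% and none was above 50%. The 5 still had shares between 15.6% and 25.3% then, and the 10 between 0% and 6.98%. This grouping was made after the values were seen and is a description.

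Among the early-falling members, miR-376b had a signal of 2897, 3289 and 3298 at e15.5, 346, 284 and 206.3 at 2 weeks and 7.25, 1.9 and 14.95 at 3 weeks, and every 7-week liver was at the floor. No 2 ages overlapped. Against e15.5 it changed by -3.49 ± 0.26 at 2 weeks and -7.52 ± 0.26 at 3 weeks (adjusted p = 2.3e-07 and 4.5e-10), and from 2 to 3 weeks by -4.04 ± 0.26 (adjusted p = 1.3e-06). The last step, 7 weeks against 3 weeks, was -0.79 ± 0.26 (adjusted p = 0.033) and rests on low 3-week signals. It was called after quantile normalisation (adjusted p = 0.00038). It was not called after scaling (0.058), with only the ages compared (0.11) or in several fits with 1 liver left out.

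The course of miR-495 was similar, with 1969, 2565 and 2118 at e15.5, 218, 219.3 and 176 at 2 weeks and 20.6, 9.73 and 6.48 at 3 weeks, and no 7-week liver was above the floor. It changed by -3.38 ± 0.22 at 2 weeks against e15.5 (adjusted p = 8.6e-08) and by -3.31 ± 0.22 at 3 weeks against 2 weeks (adjusted p = 1.3e-06). Also without overlap between ages, miR-410 had 832, 1285 and 845 at e15.5, 250, 251 and 190 at 2 weeks and 7.25, 13.65 and 18.7 at 3 weeks. It was at the floor in every 7-week liver. Its changes were -2.03 ± 0.24 at 2 weeks against e15.5 (adjusted p = 1.4e-05) and -3.39 ± 0.24 at 3 weeks against 2 weeks (adjusted p = 1.5e-06).

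The near relative of miR-495 in sequence, miR-543, fell by a like amount by 2 weeks. It had 1367, 1142 and 996 at e15.5, 77.8, 91.7 and 84.4 at 2 weeks, 35.5, 89.0 and 52.6 at 3 weeks and 61.7, 65.8 and 70.3 at 7 weeks. All postnatal livers lay far below all e15.5 livers, the 3-week livers overlapped both other postnatal ages, and the 7-week livers lay just below the 2-week livers. The change at 2 weeks against e15.5 was -3.63 ± 0.24 (adjusted p = 8.8e-08), and neither 3 weeks against 2 weeks (-0.53, adjusted p = 0.21) nor 7 weeks against 2 weeks (-0.32, adjusted p = 0.35) was called with all livers. Without 3-week mouse 2 the change at 3 weeks against 2 weeks was -0.82 and was called (adjusted p = 0.012). The 7-week value against 2 weeks turned to 0.97 after scaling and 1.30 after quantile normalisation, and both were called (adjusted p = 0.014 and 0.0017), as was 7 weeks against 3 weeks after scaling (1.16, adjusted p = 0.0071, against 0.21, adjusted p = 0.60, without it). It was 1 of only 4 members above the floor in all 12 livers, with miR-154, miR-376a and miR-539.

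Some early-falling members were at the floor in every 3-week liver. The probe of miR-134, known from rat neurons as a repressor of Limk1 at synapses, had 170, 212 and 198 units at e15.5 and was at the floor in every 2-week and 3-week liver, with 8.39 in 1 liver at 7 weeks. For miR-541 the values were 6.67, 4.51 and 3.07 at 2 weeks, against 218, 346 and 345 at e15.5, and every 3-week liver was at the floor. For miR-300 the values were 71.1, 48.1 and 30.2 at 2 weeks, against 557, 638 and 489 at e15.5, and the 3-week livers were at the floor too. All 3 were lower at 2 weeks than at e15.5 (adjusted p = 9.4e-08 for miR-134, 1.5e-06 for miR-541 and 1.0e-05 for miR-300). At 7 weeks miR-541 and miR-300 were listed again at 14.6, 23.5 and 1.18 and at 9.07, 20.6 and 1.18. Neither was called against 3 weeks (adjusted p = 0.055 for miR-541 and 0.081 for miR-300), but this depended on the setting. Both members were called higher on deposited values, with an offset of 1, on the upper 50% of probes, after quantile normalisation (adjusted p = 0.0056 for miR-541 and 0.0073 for miR-300) and without 7-week mouse 3 (adjusted p = 0.0033 and 0.010). After scaling (adjusted p = 0.047), without a variance trend and without e15.5 mouse 1, miR-541 alone was called higher. Without 7-week mouse 3 miR-541 was also higher at 7 weeks against 2 weeks (0.97, adjusted p = 0.030, against 0.51, adjusted p = 0.35, with all livers).

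The 5 members that stayed above 50% of their e15.5 mean at 2 weeks were miR-376c, miR-377, miR-369-3p, miR-411 and miR-376a. The values of miR-376c were 566, 625 and 580 at e15.5, 586, 498 and 425 at 2 weeks, 97.5, 69.5 and 66.7 at 3 weeks, and no 7-week value was above the floor. The e15.5 and 2-week livers overlapped, and the later ages lay apart below them. It was not called at 2 weeks against e15.5 (-0.24 ± 0.17, adjusted p = 0.22), but it was lower after scaling (-1.95, adjusted p = 7.3e-07). From 2 to 3 weeks it changed by -2.55 ± 0.17 (adjusted p = 1.3e-06; after scaling -2.14).

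For miR-377 the signal was 1238, 1167 and 1284 at e15.5, 1030, 776 and 676 at 2 weeks, 174, 190 and 213 at 3 weeks and 4.62 in 1 of 3 livers at 7 weeks, with the other livers at the floor. The ages did not overlap. The small change at 2 weeks against e15.5 (-0.59 ± 0.19, adjusted p = 0.020) was lost without e15.5 mouse 3 (adjusted p = 0.073), 2-week mouse 2 (0.066) or 2-week mouse 3 (0.082), with an offset of 1 (0.32) and on deposited values (0.85), and it was -2.31 after scaling. The change at 3 weeks against 2 weeks was -2.03 ± 0.19 (adjusted p = 1.4e-05; -2.09 on deposited values and not called, adjusted p = 0.86) and that at 7 weeks against 3 weeks was -4.15 ± 0.19 (adjusted p = 3.2e-08).

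In human cells miR-369-3p is known to bind an AU-rich element of the TNF messenger RNA. It had 1009, 1316 and 1044 at e15.5, 559, 581 and 612 at 2 weeks, 101.4, 66.5 and 90.3 at 3 weeks, and 22.9, 20.6 and the floor at 7 weeks. Every 2-week liver lay below every e15.5 liver, although the change of -0.92 ± 0.37 was not called (adjusted p = 0.053). It was called when 7-week mouse 3, the liver at the floor, was left out of the shared estimate of spread (adjusted p = 0.00053), and also without either of the other 7-week livers (adjusted p = 0.042 and 0.04996), and it was -2.64 after scaling (adjusted p = 0.00040). From 2 to 3 weeks the change was -2.64 ± 0.37 (adjusted p = 0.00035). It was as large but not called with an offset of 1 (-2.77, adjusted p = 0.063) and on deposited values (-2.78, adjusted p = 0.81). The values of miR-411 were 343, 378.6 and 356 at e15.5, 274, 256 and 196 at 2 weeks and 12.7, 29.3 and 31.9 at 3 weeks, with all 7-week livers at the floor. Its change was -0.56 ± 0.24 at 2 weeks against e15.5 (adjusted p = 0.063; called without 3-week mouse 1, 0.023; after scaling -2.24, adjusted p = 3.0e-06) and -2.90 ± 0.24 at 3 weeks against 2 weeks (adjusted p = 6.3e-06).

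**Figure D3:**
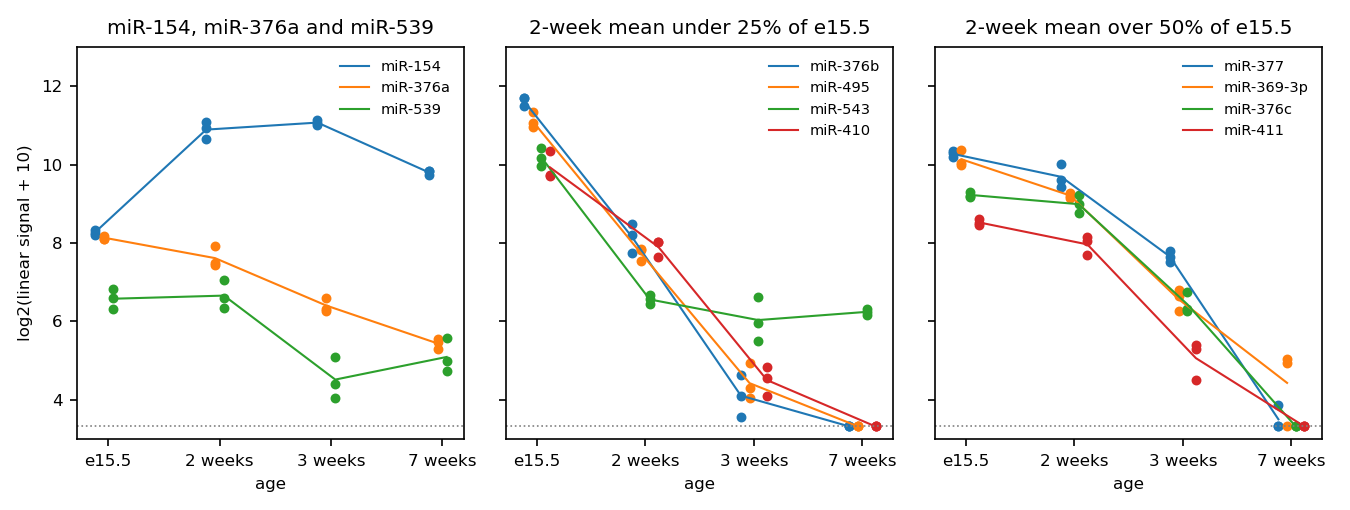
Log2(linear signal + 10) of 11 members at the 4 ages, with 1 point per liver and lines through the means, grouped into 3 members above the floor in all livers, 4 with a 2-week mean under 25% of e15.5 and 4 with a 2-week mean over 50%. The dotted line is a value at the floor, and miR-376b, miR-495 and miR-410 reach it at 7 weeks while miR-543 lies between 61.7 and 70.3 units.

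Ratios between 2 members of 1 liver do not depend on how the livers were scaled, and they showed the unequal fall directly. The ratio of miR-376b to its neighbour miR-376c was 5.12, 5.26 and 5.69 at e15.5, 0.590, 0.569 and 0.485 at 2 weeks and 0.0744, 0.0274 and 0.224 at 3 weeks. Against the near-identical miR-376a, the miR-376b ratio was 10.3, 12.3 and 12.4 at e15.5, 1.495, 1.68 and 1.25 at 2 weeks and 0.107, 0.0270 and 0.171 at 3 weeks. Both ratios separated the ages without overlap, and both compare members of 1 short stretch of the locus.

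The ratio of miR-495 to miR-377 was 1.59, 2.20 and 1.65 at e15.5, 0.211, 0.282 and 0.260 at 2 weeks and 0.118, 0.0512 and 0.0305 at 3 weeks. By contrast, miR-495 over miR-543 was 1.44, 2.25 and 2.13 at e15.5 and 2.80, 2.39 and 2.08 at 2 weeks, which overlapped, and 0.580, 0.109 and 0.123 at 3 weeks. These 2 fell by like amounts up to 2 weeks and parted after it. The pairs were chosen after the values were seen, so no test is given, and the 3-week ratios rest on low signals of miR-376b and miR-495.

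**Figure D4:**
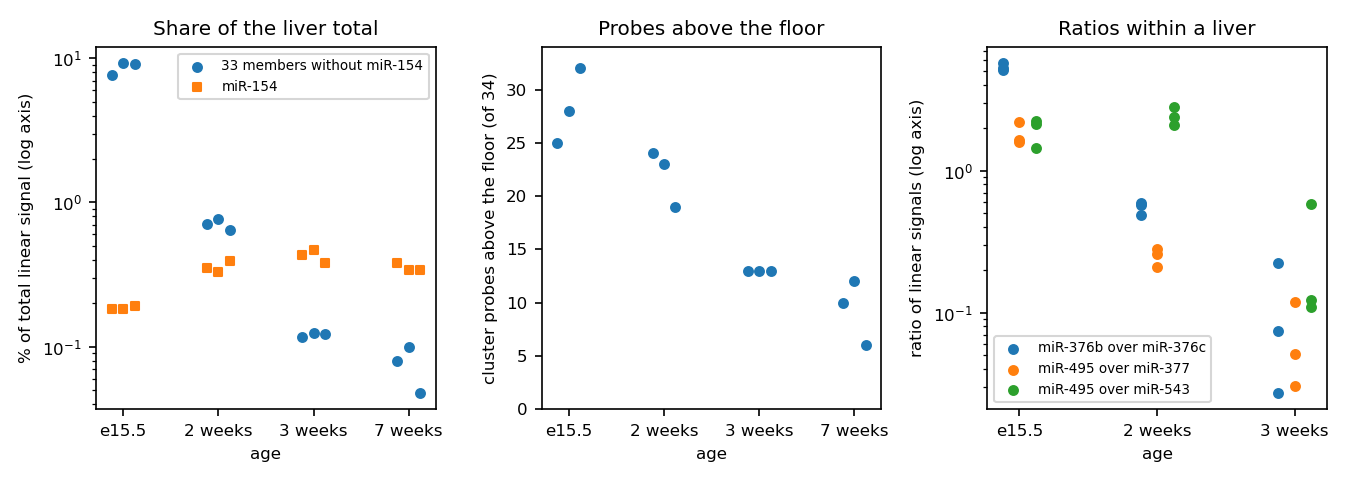
Left, share of a liver's total linear signal held by miR-154 and by the other 33 members, in % on a log axis. Middle, number of the 34 probes above the floor. Right, ratios of linear signals within a liver at e15.5, 2 weeks and 3 weeks on a log axis. Each point is 1 liver, and the 33 members pass below miR-154 at 3 weeks.

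The last of the 5, miR-376a, was above the floor in every liver. Its values were 281, 267 and 267 at e15.5, 231, 169 and 165 at 2 weeks, 67.7, 70.4 and 87.4 at 3 weeks and 29.4, 36.7 and 34.5 at 7 weeks. The 4 ages did not overlap in these unscaled values. Changes against e15.5 were -0.52 ± 0.16 at 2 weeks (adjusted p = 0.020, lost without 2-week mouse 2, 0.058, or 2-week mouse 3, 0.066), -1.73 ± 0.16 at 3 weeks (adjusted p = 2.1e-06) and -2.70 ± 0.16 at 7 weeks (adjusted p = 4.6e-08). After scaling the 2-week change was -2.18. The fall at 7 weeks against 3 weeks (-0.97, adjusted p = 0.00059) was not called after scaling (-0.036) or quantile normalisation (-0.35, adjusted p = 0.20). At 3 weeks against 2 weeks the change was -1.21 (adjusted p = 0.00031). It was -0.84 after scaling (adjusted p = 0.0014), and -0.36 and not called after quantile normalisation (adjusted p = 0.34).

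At e15.5 miR-539 had 70.1, 86.8 and 102.8, at 2 weeks 86.7, 122.3 and 70.8, at 3 weeks 6.47, 24.4 and 11.2 and at 7 weeks 16.5, 37.6 and 21.7. The first 2 ages overlapped, as did the last 2. The change at 2 weeks against e15.5 was 0.08 (adjusted p = 0.84) and turned to -1.48 after scaling (adjusted p = 0.0025), while 3 weeks against 2 weeks gave -2.14 ± 0.34 (adjusted p = 0.00079). After quantile normalisation the change at 3 weeks against 2 weeks was -0.85 and not called (adjusted p = 0.18). At 7 weeks against 3 weeks the change was 0.58 (adjusted p = 0.24), against 1.27 after scaling (adjusted p = 0.018).

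Both arms of 4 hairpins were on the panel. For miR-369, the 5p arm had 3.33, 4.51 and the floor at 2 weeks, against 49.9, 113 and 87.4 at e15.5. The 3p arm still held 52.0% of its e15.5 mean at 2 weeks. The 5p arm was lower at 2 weeks than at e15.5 (-2.84 ± 0.37, adjusted p = 3.5e-05; not called on deposited values, adjusted p = 0.094). The difference between the arms was not tested, and the 5p arm was by then near the floor. For miR-409, the 5p arm had 61.1, 29.6 and 35.8 at 2 weeks, against 67.6, 51.6 and 65.9 at e15.5 (-0.50 ± 0.28, adjusted p = 0.14; after scaling -1.92, adjusted p = 6.7e-05). The 3p arm was at the floor in every 2-week liver, against 17.0, 5.33 and 2.29 at e15.5 (adjusted p = 0.014). Which arm of miR-409 was called depended on the setting: after quantile normalisation the 5p arm was lower (-0.74, adjusted p = 0.018) and the 3p arm was not called (adjusted p = 0.25), nor was it when only the ages compared were fitted (adjusted p = 0.092). Without 2-week mouse 1 the 5p arm was lower too (-0.74, adjusted p = 0.012). Both arms of miR-409 were at the floor in every 3-week and 7-week liver.

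For miR-323, the 3p arm had 138.4, 262 and 180 at e15.5, 27.8, 40.5 and 22.3 at 2 weeks and the floor at 3 weeks (2 weeks against e15.5, -2.32 ± 0.30, adjusted p = 3.8e-05; on deposited values -2.67 and not called, adjusted p = 0.34), and the 5p arm was above the floor in 1 e15.5 liver only. Neither arm of miR-380 was called at 2, 3 or 7 weeks against e15.5 with all livers. The 5p arm was above the floor in 4 livers, at 16.4 and 27.9 at e15.5 and 20.15 and 9.33 at 7 weeks. The 3p arm was above it in 2, at 5.37 at e15.5 and 12.2 at 2 weeks. Without e15.5 mouse 1 the 5p arm was called lower at 2 and 3 weeks (-1.66, adjusted p = 0.0033 and 0.0031). It was also called lower without 7-week mouse 3 (adjusted p = 0.042 and 0.038) and, at 3 weeks only, without 7-week mouse 1 (0.048).

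The other members followed 1 of these courses or were too dim to show one. Between the early and the late courses lay miR-329, with 484.8, 375 and 308 at e15.5, 224, 151 and 160.0 at 2 weeks, 25.3, 19.5 and 31.0 at 3 weeks and the floor at 7 weeks. It changed by -1.08 ± 0.23 at 2 weeks against e15.5 (adjusted p = 0.0018), and its ages did not overlap. The values of miR-382 were 404, 347 and 267 at e15.5 and 12.7, 12.7 and 32.8 at 3 weeks, again with the floor at 7 weeks, and its 2-week mean was 47.1% of its e15.5 mean. The probe of miR-381, close in sequence to that of miR-300, had 229, 224 and 210.4 at e15.5 and 37.8, 17.6 and 5.32 at 2 weeks, and it was at the floor at 3 and 7 weeks.

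At e15.5 miR-487b had 117, 172 and 166, against 40.0, 28.5 and 15.5 at 2 weeks and the floor at both later ages. No liver after birth was above the floor for miR-667, which had 107, 89.9 and 76.1 at e15.5. Both were lower at 2 weeks than at e15.5 (adjusted p = 8.4e-05 for miR-487b and 5.9e-08 for miR-667). Of the dimmer members, miR-1193 stood between 21.8 and 56.6 at e15.5 with 7.78 in 1 liver at 2 weeks, and miR-379 between 24.45 and 56.2 at e15.5 with 33.3 and 19.8 in 2 of 3 livers at 2 weeks. The probes of miR-412, miR-666-3p, miR-1197, miR-485, miR-494 and miR-496 exceeded the floor in at most 2 livers each, with a highest value of 22.8, and of these miR-412 alone was called against e15.5 on log2(linear signal + 10). These calls depended on the setting: after quantile normalisation miR-412 was not called (adjusted p = 0.87 at 2 weeks), miR-666-3p was lower at 2 weeks after scaling (adjusted p = 0.041) and on deposited values (0.035), and miR-496 was higher at 2 weeks after quantile normalisation (0.018) and on deposited values (0.036).

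The exception to the fall was miR-154. Its signal was 313, 298.1 and 285 at e15.5, 2173, 1605 and 1939 at 2 weeks, 2131, 2251 and 2051 at 3 weeks and 905, 837 and 910 at 7 weeks. The e15.5 livers were the lowest, the 7-week livers lay between e15.5 and the earlier postnatal ages, and 2 and 3 weeks overlapped. Against e15.5 it was higher by 2.62 ± 0.11 at 2 weeks, 2.80 ± 0.11 at 3 weeks and 1.53 ± 0.11 at 7 weeks (adjusted p = 1.9e-09, 9.2e-10 and 1.7e-07). The rise was smaller and still called after scaling, at 0.90, 1.44 and 1.28 (adjusted p = 5.6e-05, 1.1e-06 and 2.7e-06).

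Among the postnatal ages the course of miR-154 depended on the scaling. At 3 weeks against 2 weeks the change was 0.18 (adjusted p = 0.41), and 0.54 after scaling (adjusted p = 0.013). At 7 weeks against 3 weeks it was -1.27 ± 0.11 (adjusted p = 2.9e-06), and -0.16 after scaling (adjusted p = 0.43). Its share of a liver's total signal averaged 0.185% ± 0.00596 in fetal livers, 0.357% ± 0.0310 at 2 weeks, 0.429% ± 0.0454 at 3 weeks and 0.355% ± 0.0239 at 7 weeks (SD, n = 3 each), and the postnatal ages overlapped. Of the summed cluster signal it made up between 1.94% and 2.31% at e15.5, between 30.1% and 37.6% at 2 weeks, between 75.7% and 79.0% at 3 weeks and between 77.6% and 87.6% at 7 weeks. The nearest measured neighbour with a bright signal, miR-377, has its hairpin 2011 bases downstream and went the other way: miR-154 over miR-377 was 0.253, 0.255 and 0.222 at e15.5, 2.11, 2.07 and 2.87 at 2 weeks and 12.2, 11.9 and 9.65 at 3 weeks.

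Between the postnatal ages, 16 members were lower at 3 weeks than at 2 weeks and none was called higher (19.2% of all probes were lower and 0.563% higher), with a median change of -0.88 beside -0.12 for all probes. All 16 had no overlap between the ages. Called or not, 17 of the 34 members were lower without overlap, beside 85 of all 355 probes. After scaling the counts were 15 lower and 1 higher, miR-154 (9.58% and 3.1% of all probes). At 7 weeks against 3 weeks 11 were lower and none higher (31.5% and 5.07% of all probes), against 8 lower and 3 higher after scaling (10.1% and 11.8%), the 3 being miR-539, miR-541 and miR-543. At 7 weeks against 2 weeks 17 were lower and none higher (38.6% and 3.66% of all probes), against 14 lower and 2 higher, miR-154 and miR-543, after scaling (17.2% and 11.3%). In limma at an unadjusted p below 0.05 no member was higher at 3 or 7 weeks against 2 weeks, and 2, miR-300 and miR-541, were higher at 7 weeks against 3 weeks. The share of members lower at 7 weeks against 3 weeks was close to that of all probes without scaling and above it after scaling. By 3 weeks 21 of the 34 members were at the floor in all 3 livers and could fall no further.

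Elsewhere in the Dlk1-Dio3 domain, 15 probes of miRNAs outside the cluster (among them miR-127, miR-136 and miR-434) were measured. Against e15.5, 8 were lower and 1, miR-136, was higher at 2 weeks, 11 were lower at 3 weeks and 9 at 7 weeks, with none higher at the last 2 ages (limma, also at an unadjusted p below 0.05). Over all probes, 27% were lower and 29% higher at 2 weeks, 36.9% were lower at 3 weeks and 26.8% at 7 weeks. The median changes of the 15 were -0.98, -1.28 and -0.95. After scaling 11, 11 and 9 were lower at 2, 3 and 7 weeks (45.1%, 47.6% and 32.4% of all probes). After quantile normalisation 6 were lower at each age (70, 72 and 69 of all 355 probes). The call of miR-136 as higher was lost after scaling, after quantile normalisation and on deposited values. Of 7 probes of imprinted miRNAs from other loci (miR-335, miR-483, miR-675, miR-296 and miR-298), 2 were lower and 3 higher at 2 weeks, 3 lower and 1 higher at 3 weeks and 4 lower and none higher at 7 weeks (none also at an unadjusted p below 0.05). At 2 weeks these counts turned to 4 lower and 1 higher after scaling (45.1% and 20% of all probes). At 3 weeks they turned to 5 lower and 1 higher (47.6% and 19.2%). The 2 of 7 lower at 2 weeks and the 3 of 7 lower at 3 weeks are near the shares of all probes. With only 7 probes, none of these counts is read as a result about them.

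Probes that mark cell types differed between the ages in these same samples. The sums below are not scaled between livers. The 100 brightest probes were also higher than at e15.5, on average by 1.75, 1.39 and 0.27 log2 units at 2, 3 and 7 weeks. The sums include that shift. The summed signal of 10 adult hepatocyte probes, miR-122 among them, lay between 14016 and 19712 at e15.5, where miR-101a, miR-193 and miR-802 were at the floor in each liver, between 183140 and 279635 at 2 weeks, between 230204 and 262311 at 3 weeks and between 102550 and 117805 at 7 weeks. For 3 erythroid probes (miR-144, miR-451 and miR-486) the ranges were 12411–17254 at e15.5, 8987–10801 and 9643–11275 in 2-week and 3-week livers, and 2712–5271 in 7-week livers. For 7 leukocyte probes they were 7035–7420, 3228–3827, 2758–3040 and 1736–1983 in the same order of ages. Unlike that sum, 1 of the 7 leukocyte probes, miR-342-3p, was at the floor in each e15.5 liver and above it in every later liver. For 5 mesenchymal probes the ranges were 1327–1721, 5550–6671, 3766–4814 and 1427–1712. The endothelial probes (2) had 5065–5557, 35866–44547, 25099–28415 and 10541–12080, and the biliary probes (5) had 182–234, 1640–1797, 613–1001 and 137.9–173.0. Neural probes (4), set beside the cluster because it is active in brain, summed to between 0 and 85.4 in all livers. The part of these cell types in the fall of the cluster or in the rise of miR-154 was not tested.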

How the data were processed

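The deposited table held log2 values of 355 mouse probes in 12 livers, named by the accessions of the labels. Per the submitters' processing notes the only tool named is Partek 6.6, with background subtraction and scaling not given in the sources used here. The lowest deposited log2 value, -9.97, is 0.001 in linear units and was set to 0. No 2 columns were identical. Raw counts were not used here, so no counting interval is given, and 3 livers per age limit the precision. In the main fit the p-values rest on a spread between livers estimated over all 4 ages together. An age with all 3 livers at the floor adds a spread of 0 to it, as for 15 of the 25 members lower at 7 weeks.

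The fit of log2(linear + 10) over all 12 livers, with a mean for each age, used limma 3.58.1 in R 4.3.3 (eBayes with trend, two-sided). The offset replaced the deposited log2 scale as the main one, since there a step from 1 unit to the floor counts as a very large change. The fit, not the choice of offset, was tested on simulated data. These had normal noise and no floor, so that test does not cover ages at which a probe was at the floor. Members, lists, rules and offset were chosen with earlier results of these data known. Named members were miR-154, members higher than at e15.5, the 10 brightest at e15.5, the 5 largest falls per comparison with e15.5 and at 3 against 2 weeks, both arms of a hairpin and members above the floor in all livers; members described beside these, and ratios, were added after the values were seen. Alternatives were deposited values, an offset of 1, scaling on the 100 brightest probes, quantile normalisation, the upper 50% of probes, each liver left out, a block for mouse number, no trend and a fit of only the compared ages. Mature and hairpin miRNA sequences are from RefSeq (GRCm38.p6). Figures used matplotlib 3.10.9 (Python 3.11.15).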

Additional observations from a re-analysis of the deposited data

How the results depend on the processing

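The counts of members called lower kept within 1.5 times of the main count under all alternatives run: with all livers kept and against e15.5 they lay between 16 and 26 at 2 weeks and between 19 and 26 at both 3 and 7 weeks, where the count of 19 came from the upper 50% of probes, which held 20 members. Leaving out 1 liver gave 16 to 21, 24 to 27 and 24 to 26. With the mouse number as a replicate block the counts were 19, 25 and 25. The numbers share no stated litter or batch: same-numbered livers had deviations correlated between -0.45 and 0.31, and 3 of 12 livers correlated best with their own number. The rise of miR-154 against e15.5 was called under every alternative, between 0.90 and 2.74 for 2 weeks, 1.44 and 2.84 for 3 weeks, and 1.28 and 1.84 for 7 weeks. Its fall at 7 weeks reversed against 3 weeks after quantile normalisation (0.070) and against 2 weeks after scaling (0.38) and quantile normalisation (0.45). Also reversed were miR-543 at 7 against 2 weeks (0.97 scaled, 1.30 quantile) and miR-539 at 2 weeks against e15.5 (-1.48 scaled); the cause was not tested. Of 2550 alternative values of named members, 2456 kept direction and side of the threshold, or were not called in either setting. Of those 2456, 1517 came from fits with 1 liver left out, which do not touch the scaling. The count also holds comparisons with every liver at the floor, as for miR-409-3p at 3 against 2 weeks. Values near the floor limit the size of the later falls.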
